A study of Mus musculus with 27 samples.

Results

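Cultured mouse cortical neurons were compared with control microglia at day 7 across all genes of the deposited RNA tables. The comparison takes 6 of the 27 samples of a series on the conversion of mouse microglia into neuron-like cells, and its members are the 24293 gene symbols listed in every RNA table. The cortical neurons were 3 libraries from C57BL/6 wild-type mice at postnatal day 1, prepared from cortex and grown in Neurobasal medium with B27, with no time in culture given. The control microglia were 3 libraries from C57BL/6 wild-type cortex of the same age, kept in primary culture, treated as controls and collected at day 7. The labels do not give the medium of the control microglia or say whether they received a control virus, so the medium and the cell type cannot be told apart. The labels also do not say that replicates came from separate cultures, so the p-values measure only the spread between sequenced libraries. That spread was pooled over all RNA groups of the series and not taken from these 6 samples alone. Both cell types come from whole cortex, and a culture can hold other cells of the cortex.

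Neurons and microglia share a tissue but not an origin: neurons arise from the neuroepithelium, whereas microglia descend from yolk sac macrophage precursors and enter the brain from outside. Neurons build axons and dendrites on stabilised microtubules, release transmitter from synaptic vesicles by SNARE proteins and read it with ligand-gated receptors. Microglia survey the tissue, engulf debris and synapses, digest them in lysosomes, and sense pathogens and complement through surface receptors, under the control of PU.1 (Spi1), IRF8 and the CSF1 receptor.

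Levels are the authors' FPKM, a read density that allows for transcript length and for how many fragments a library mapped. A gene was tested where 3 or more of the 15 RNA libraries reached 1 FPKM, which left 13602. Besides the groups compared, these hold control microglia of day 2 and microglia labelled ND1 of day 2 and of day 7, 3 libraries each. A gene low in both compared groups could therefore still be tested. It was called where limma gave a Benjamini-Hochberg adjusted p under 0.05 together with a difference of 1 or more in log2(FPKM + 1), taken as cortical neurons minus control microglia and given below as the log2 fold change. This scale understates the change of weakly expressed genes.

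Promoters of 6 genes with large differences are shown first, since their letters bear on the methylation and motif counts given after the expression results. Each runs from 250 bases before to 50 bases after the annotated start, 5′ to 3′ on the gene's strand, from RefSeq on GRCm38.p6, the assembly that mm10 names. In Tubb3, the neuron-specific beta tubulin (mm10 chr8:123411303-123411602, plus strand), and in Neurod6, a basic helix-loop-helix factor of excitatory cortical neurons (chr6:55681214-55681513, minus strand), capitals mark CG dinucleotides, the sites that can be methylated.
Tubb3: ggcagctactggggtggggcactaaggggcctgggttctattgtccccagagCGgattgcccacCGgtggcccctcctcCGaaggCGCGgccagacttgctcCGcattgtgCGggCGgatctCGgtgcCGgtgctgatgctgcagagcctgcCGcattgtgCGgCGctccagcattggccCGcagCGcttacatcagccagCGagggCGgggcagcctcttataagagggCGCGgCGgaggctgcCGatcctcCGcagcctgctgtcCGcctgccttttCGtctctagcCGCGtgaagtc
Neurod6: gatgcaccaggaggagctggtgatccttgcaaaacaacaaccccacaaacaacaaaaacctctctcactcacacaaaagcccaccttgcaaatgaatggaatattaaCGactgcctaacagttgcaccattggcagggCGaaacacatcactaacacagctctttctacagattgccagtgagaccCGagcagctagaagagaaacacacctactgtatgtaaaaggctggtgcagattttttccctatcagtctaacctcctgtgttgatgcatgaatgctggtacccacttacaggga
In Sst, the neuropeptide somatostatin of a class of interneurons (chr16:23890795-23891094, minus strand), capitals mark the cyclic AMP response element TGACGTCA, at position -48 from the start. In C1qc, a chain of the complement component C1q (chr4:136892865-136893164, minus strand), they mark GAGGAAGT read on the opposite strand, a word that PU.1 binds. In Isg15, a ubiquitin-like protein induced by interferon (chr4:156200769-156201068, minus strand), they mark overlapping copies of GAAA, any 2 bases, GAAA, the core of the interferon-stimulated response element. In Hmgcs1, an enzyme of the mevalonate pathway (chr13:119690101-119690400, plus strand), they mark TCACNCCAC, the sterol regulatory element.
Sst: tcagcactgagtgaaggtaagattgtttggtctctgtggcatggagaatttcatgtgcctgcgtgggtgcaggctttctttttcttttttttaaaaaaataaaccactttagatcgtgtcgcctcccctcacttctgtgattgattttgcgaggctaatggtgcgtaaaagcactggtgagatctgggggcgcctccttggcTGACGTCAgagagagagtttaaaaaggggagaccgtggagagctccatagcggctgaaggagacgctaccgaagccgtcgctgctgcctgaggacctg
C1qc: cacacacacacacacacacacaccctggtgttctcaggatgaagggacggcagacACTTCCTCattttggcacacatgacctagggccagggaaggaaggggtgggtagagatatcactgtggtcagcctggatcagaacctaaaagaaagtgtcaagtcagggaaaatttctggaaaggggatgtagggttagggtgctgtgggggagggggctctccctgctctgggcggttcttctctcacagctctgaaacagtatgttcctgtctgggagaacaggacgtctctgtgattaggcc
Isg15: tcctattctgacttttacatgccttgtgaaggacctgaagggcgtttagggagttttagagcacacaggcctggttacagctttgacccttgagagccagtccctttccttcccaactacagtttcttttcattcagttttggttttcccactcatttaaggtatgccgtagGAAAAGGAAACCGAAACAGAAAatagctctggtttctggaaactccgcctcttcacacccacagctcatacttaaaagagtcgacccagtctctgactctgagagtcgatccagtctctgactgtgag
Hmgcs1: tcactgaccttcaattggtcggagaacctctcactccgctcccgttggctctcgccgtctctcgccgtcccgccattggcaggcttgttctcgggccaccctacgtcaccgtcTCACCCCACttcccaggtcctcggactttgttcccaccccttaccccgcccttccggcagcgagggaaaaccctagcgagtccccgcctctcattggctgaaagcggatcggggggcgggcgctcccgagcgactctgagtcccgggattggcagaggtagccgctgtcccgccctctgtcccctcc
Tubb3 holds 26 CG dinucleotides in this window and Neurod6 holds 3. A match of a word is a description of the sequence and not a site shown to be bound.

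Genes called in either direction made up 53.4% of the 13602 tested genes: 3824 (28.1%) were higher in cortical neurons and 3436 (25.3%) were lower. Among them, 231 were higher and 424 lower by at least 5 on the log2 scale. Genes with a mean of at least 10 FPKM in neurons and under 1 FPKM in microglia numbered 762, and 679 had the opposite pattern. At the top of the range, 30 genes averaged at least 1000 FPKM in neurons and 109 did so in microglia. FPKM sums were 429013 to 483402 in neuron libraries and 700518 to 739846 in microglia libraries, and the 10 most abundant genes took 6.70% to 9.82% of the sum in neurons and 17.1% to 17.4% in microglia. Rescaling every library to 1 common sum moved the median log2 fold change of all tested genes by 0.59, so that 5579 genes were higher and 2656 lower, and the share of calls that were higher was 67.7% in place of 52.7%. All values below are on the scale as deposited, where the median over all tested genes was 0.06.

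Read counts were not used here, so library depth is unknown. The worth of 1 read was estimated from genes of very low value above 0. It is the most frequent ratio of a gene's value to its value in the first neuron library, which was set to 1. The estimate takes such genes to hold equal numbers of reads in both libraries most often. It was 0.966 to 1.09 in neurons and 1.22 to 1.29 in microglia. This value depends on how each library was scaled as well as on its depth, so it does not rank the libraries by depth. Across tested genes, libraries correlated at 0.980 to 0.983 within neurons, at 0.980 to 0.986 within microglia and at 0.427 to 0.447 between them. Genes are not independent replicates, so these values carry no p. Some abundant genes are listed at exactly 0: Actr3, an actin nucleator of the Arp2/3 complex, had 130.1, 125 and 132 FPKM in neurons and 0 in all microglia libraries. Atp6v0c, a proton pump subunit, had 131, 433 and 424 FPKM in neurons and 854, 0 and 0 FPKM in microglia. Genes of all kinds with some libraries of a group at 0 and others at 20 FPKM or more numbered 108, of which 10 were protein-coding. No fold change is given for single genes listed at 0 in a whole group.

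**Figure D1:**
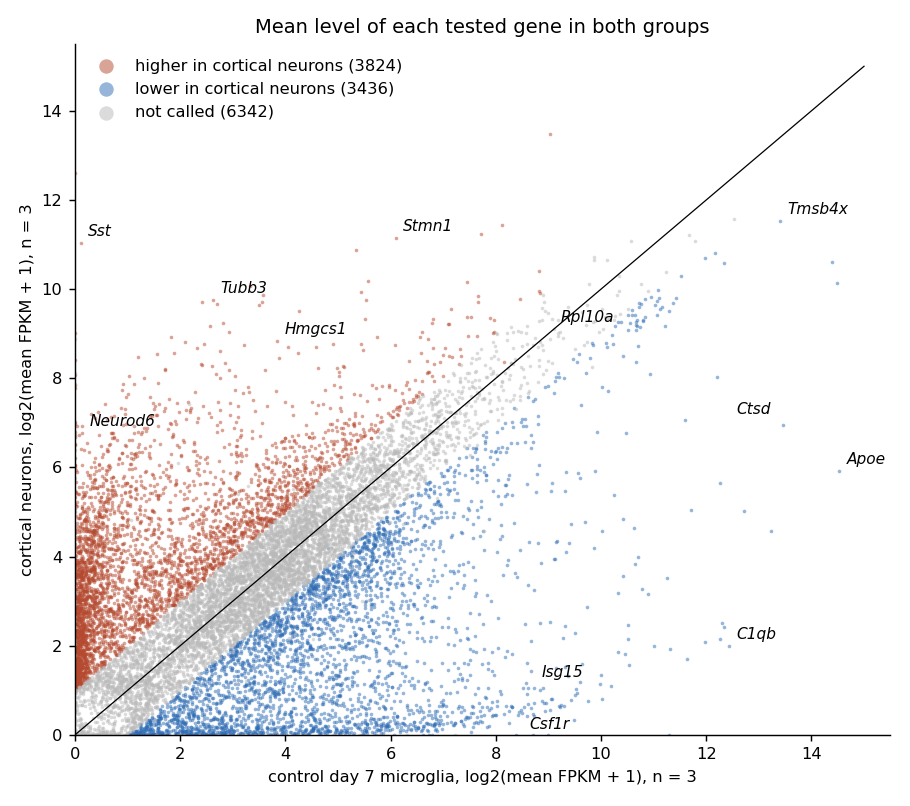
Each point is 1 of the 13602 tested genes, with its mean level in cortical neurons on the vertical axis and in control day 7 microglia on the horizontal axis, both as log2(mean FPKM + 1) over 3 libraries. Red points are the 3824 genes called higher in cortical neurons, blue points the 3436 called lower, grey points those not called, and the line marks equal levels.

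Markers of both labelled cell types went with their labels. Tubb3 had 771, 887 and 915 FPKM in neurons, against 4.77, 4.27 and 6.48 FPKM in microglia. Csf1r, the receptor that keeps microglia alive, had 0.3897, 0.343 and 0.468 FPKM in neurons, against 362, 360.3 and 362 FPKM in microglia. All 3 libraries of each group lay apart from all 3 of the other for both genes. Differences beyond the spread between libraries were the usual state of a gene here. By the limma adjusted p under 0.05 alone, 6439 of the 13602 tested genes were higher and 5944 lower in neurons. The share of all tested genes without overlap was not counted, so separation of the libraries, here and below, does not set the named genes apart. Of the 8 neuronal markers the lowest mean in neurons was 22.3 FPKM for Elavl4, an RNA-binding protein, and the highest mean in microglia was 9.07 FPKM for Stmn2, a stathmin of growing axons. Bulk libraries cannot tell fewer cells of a type from less RNA per cell, so the low Tubb3 in microglia and the low Csf1r in neurons are levels of the cultures and not of single cells.

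Among the microglia markers the levels were uneven. C1qa, a chain of complement C1q, had 3.85, 3.03 and 3.52 FPKM in the neuron libraries and 4918, 4953 and 4839.9 FPKM in the microglia libraries. Cx3cr1, the fractalkine receptor, had 0.327, 0.147 and 0.204 FPKM in neurons and 12.4, 12.4 and 12.8 FPKM in microglia. P2ry12, a purinergic receptor of surveying microglia, had 0.0116, 0.0334 and 0.0378 FPKM in neurons and 11.9, 10.3 and 10.2 FPKM in microglia. Tmem119, which marks resident microglia, had 0.0395, 0.0762 and 0.0287 FPKM in neurons and 1.14, 0.959 and 1.14 FPKM in microglia and did not enter the test. These 3 genes were higher in every microglia library than in any neuron library, but far below C1qa or Csf1r in the same libraries.

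Markers of other cortical cells were detected in both cultures, and in microglia Cnp, Clu, Gfap and Acta2 lay above the microglia markers Cx3cr1 and P2ry12. Summed over the astrocyte list, the level was 62.9 to 68.8 FPKM in neurons and 122 to 124 FPKM in microglia. Of its 11 tested genes 4 were lower and 1 was higher in neurons: Gfap had 1.68, 1.83 and 1.89 FPKM in neurons and 30.1, 23.3 and 23.7 FPKM in microglia, while Slc1a2, a glutamate transporter, had 5.74, 5.405 and 4.705 FPKM in neurons and 1.095, 1.59 and 1.56 FPKM in microglia. Clu, the secreted chaperone clusterin, was the largest part of the astrocyte sum, with 34.3, 39.9 and 38.2 FPKM in neurons and 42.2, 42.8 and 43.8 FPKM in microglia, and was not called. The oligodendrocyte lineage list summed to 15.4 to 16.1 FPKM in neurons and 73.6 to 74.98 FPKM in microglia, and of its 5 tested genes 1 was higher and 3 were lower. Cnp, a myelin enzyme, made up most of that sum in microglia, with 3.86, 4.09 and 4.32 FPKM in neurons and 51.2, 50.8 and 50.8 FPKM in microglia, whereas Sox10, which defines the lineage, was listed at 0 in all neuron libraries and averaged 0.101 FPKM in microglia. The endothelial list summed to 1.22 to 1.47 FPKM in neurons and 9.47 to 10.7 FPKM in microglia, with Cldn5, the tight junction claudin, listed at 0 in all microglia libraries and averaging 0.0139 FPKM in neurons. The fibroblast and mural list summed to 23.1 to 24.8 FPKM in neurons and 51.1 to 65.5 FPKM in microglia, with 2 genes higher (Rgs5 and Vtn) and 2 lower (Tagln and Acta2) of 8 tested. Acta2, smooth muscle actin, had 2.75, 3.03 and 3.03 FPKM in neurons and 20.7, 22.3 and 19.98 FPKM in microglia. In control microglia of day 2 the means were 2.88 FPKM for Gfap, 0.564 FPKM for Aqp4 and 0.721 FPKM for Acta2, against 25.7, 8.44 and 20.99 FPKM at day 7. Over all tested genes 28.1% were higher and 25.3% lower in neurons, and the counts of these short lists are descriptions. The part of these other cortical cells in the results below was not tested.

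**Figure D2:**
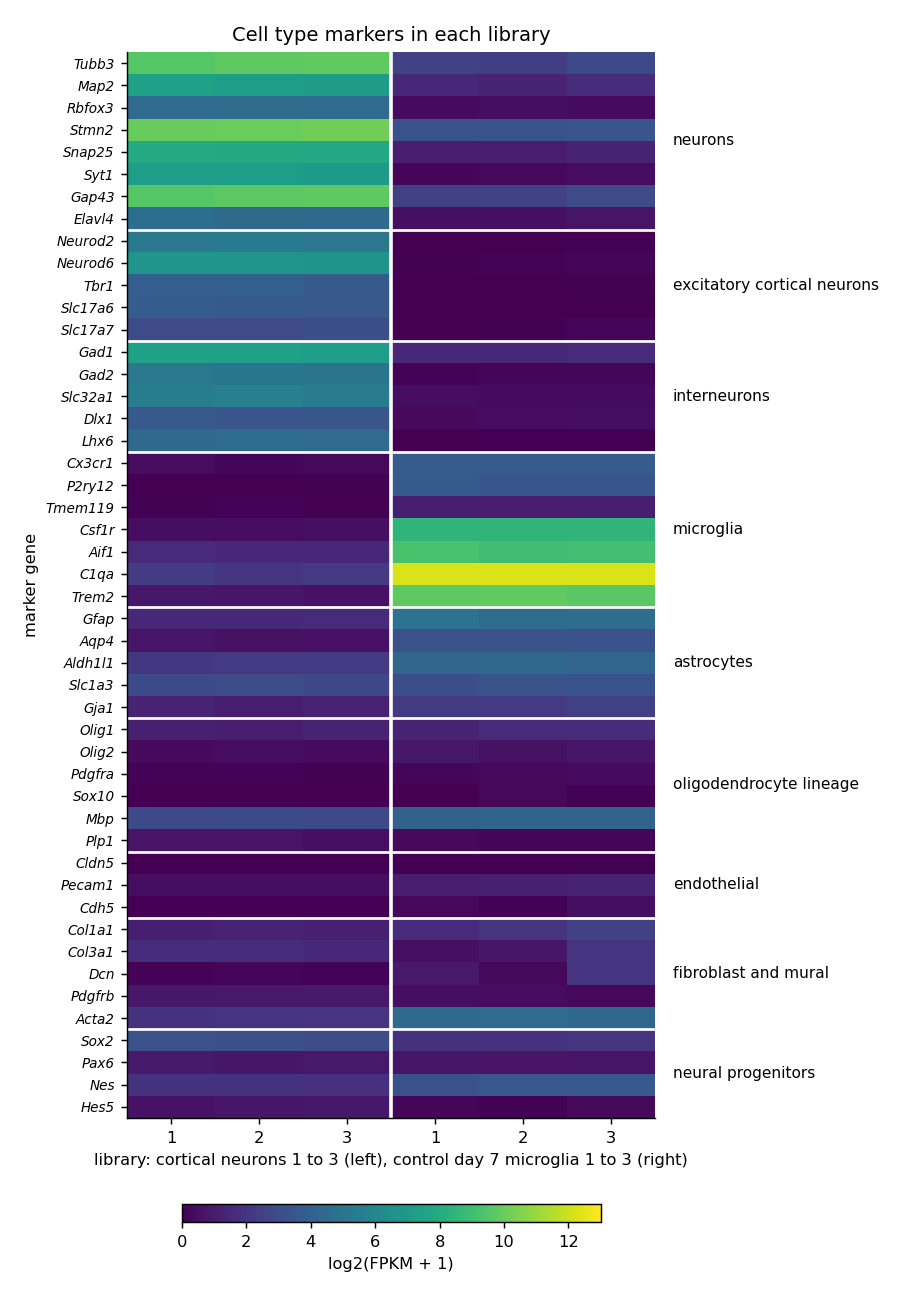
Colour gives log2(FPKM + 1) of each marker gene (rows) in each library (columns), with the 3 cortical neuron libraries on the left and the 3 control day 7 microglia libraries on the right. Neuronal, excitatory and interneuron markers are brighter on the left and microglia markers on the right, while markers of other cell types are mostly dark in both groups. On the right, Cx3cr1, P2ry12 and Tmem119 are dim, and Gfap and Acta2 are brighter than them.

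Genes of the neuronal skeleton and of neuronal RNA binding stood far above their level in microglia. Of 30 tested members 29 were higher in cortical neurons and 0 were lower, with a median log2 fold change of 5.26. Stmn3, a microtubule-destabilising stathmin, had 716, 837 and 955 FPKM in neurons and 5.101, 4.58 and 3.29 FPKM in microglia, a log2 fold change of 7.30 ± 0.12 (SE, n = 3 each, limma adjusted p = 4.68e-16). Tubb3 differed by 7.13 ± 0.12 and Gap43, a growth cone protein, by 6.999 ± 0.12 (SE), with 751, 838 and 862 FPKM in neurons and 4.59, 4.74 and 7.11 FPKM in microglia. Mapt, which encodes tau, had 365, 383 and 359.9 FPKM in neurons and 1.24, 1.87 and 2.66 FPKM in microglia, a log2 fold change of 7.01 ± 0.14. The neurofilament genes spanned a wide range of levels in neurons, with 58.5 FPKM for the light chain Nefl, 13.7 FPKM for Nefm and 2.29 FPKM for the heavy chain Nefh, against 0.0229, 0.124 and 0.00567 FPKM in microglia. For each of the genes with values per library in this list, the lowest neuron library lay above the highest microglia library. The member not called was Nova1, a splicing factor, with means of 2.08 FPKM in neurons and 0.734 FPKM in microglia and a log2 fold change of 0.83.

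Transcription factors of the cortex followed the same direction. Of 29 tested members 24 were higher and 1 was lower in neurons, with a median log2 fold change of 3.48. Neurod6 had 108, 108 and 106 FPKM in neurons and 0.0478, 0.0988 and 0.154 FPKM in microglia, a log2 fold change of 6.62 ± 0.062 (SE, limma adjusted p = 4.44e-18). Bhlhe22, a repressor of cortical projection neurons, had 69.96, 64.96 and 60.3 FPKM in neurons and 0.0416, 0.0107 and 0.232 FPKM in microglia. Factors of separate cortical layers were present together, and means in neurons were 11.3 FPKM for Cux2 of upper layers, and 7.77 FPKM for Bcl11b and 6.18 FPKM for Fezf2 of deep layers. In microglia these 3 averaged 0.101, 0.0668 and 0.0697 FPKM. No library of one group reached the range of the other for these factors. Neurod1, an early neurogenic factor, averaged 6.54 FPKM in neurons and 1.56 FPKM in microglia. Tle4, a Groucho corepressor used as a deep-layer marker, went the other way, with 3.805, 3.78 and 3.32 FPKM in neurons and 21.3, 20.1 and 20.9 FPKM in microglia and a log2 fold change of -2.23 ± 0.042. Cux1, Nfia, Zeb1 and Foxp1 were not called, and Eomes, a factor of intermediate progenitors, averaged 0.263 FPKM in neurons and was not tested.

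The neuronal culture held transcripts of inhibitory as well as excitatory neurons. Of 24 tested interneuron and GABAergic genes 21 were higher and 1 was lower in neurons, with a median log2 fold change of 3.58. Sst had 1813, 2248 and 2243 FPKM in neurons and 0.157, 0 and 0.0762 FPKM in microglia, and its log2 fold change of 10.93 ± 0.12 (SE, limma adjusted p = 1.12e-17) was the largest among the protein-coding genes named by the rule. Gad1, which makes GABA from glutamate, had 171, 171 and 156 FPKM in neurons and 1.83, 1.76 and 2.03 FPKM in microglia. Slc32a1, the vesicular GABA transporter, averaged 45.4 FPKM in neurons and 0.342 FPKM in microglia, whereas the vesicular glutamate transporters averaged 12.1 FPKM (Slc17a6) and 7.19 FPKM (Slc17a7) in neurons and 0.00512 and 0.07796 FPKM in microglia. The neuropeptide cholecystokinin, Cck, had 153, 175 and 184 FPKM in neurons and 0.128, 0.0659 and 1.24 FPKM in microglia. Neuropeptide Y, Npy, averaged 266 FPKM in neurons and also 109.6 FPKM in microglia, a log2 fold change of 1.29 ± 0.13. The 3 neuron libraries lay close together and above all microglia libraries for each of these genes. Maf, a factor of both somatostatin interneurons and macrophages, was lower in neurons, with 8.301, 8.82 and 7.26 FPKM against 71.6, 72.98 and 76.6 FPKM in microglia. Pvalb, the calcium buffer of fast-spiking interneurons that appears late in development, averaged 1.09 FPKM in neurons and 0.446 FPKM in microglia and was not tested.

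The machinery of transmitter release was almost all on the neuronal side, with 27 of 30 tested synaptic vesicle and release genes higher, 1 lower and a median log2 fold change of 4.64. Syt1, the calcium sensor of fast release, had 153, 151 and 136 FPKM in neurons and 0.151, 0.205 and 0.339 FPKM in microglia, a log2 fold change of 6.91 ± 0.068 (SE, limma adjusted p = 5.24e-18). Cplx1, a complexin that clamps the SNARE bundle, had 224, 242 and 236 FPKM in neurons and 1.08, 0.549 and 0.999 FPKM in microglia. Neither gene overlapped between the groups. Synaptophysin, Syp, averaged 289 FPKM in neurons and 2.29 FPKM in microglia. The lower gene was Sypl, a synaptophysin relative of non-neuronal vesicles, with 2.603, 2.54 and 2.497 FPKM in neurons and 29.1, 25.1 and 25.95 FPKM in microglia. Vamp1 and Atp6v0a1, a subunit of the proton pump shared by vesicles and lysosomes, were not called, the second with means of 96.4 FPKM in neurons and 63.6 FPKM in microglia.

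On the receiving side, all 32 tested genes for glutamate and GABA receptors and postsynaptic scaffolds were higher in neurons, with a median log2 fold change of 3.69. The GABA-A receptor subunit Gabra2 had 68.1, 60.5 and 58.6 FPKM in neurons and 0.369, 0.249 and 0.646 FPKM in microglia, a log2 fold change of 5.49 ± 0.10. Among NMDA receptor subunits the obligatory Grin1 averaged 35.9 FPKM in neurons, the early Grin2b 4.47 FPKM and the later Grin2a 2.201 FPKM, against 0.125, 0.0182 and 0.00721 FPKM in microglia. The scaffold Dlg4, known as PSD-95, averaged 110.3 FPKM in neurons and 5.49 FPKM in microglia.

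Voltage-gated channels, which carry the action potential, were also on the neuronal side. Of 26 tested members 24 were higher in neurons and 0 were lower, with a median log2 fold change of 2.54. Cacna2d1, an auxiliary calcium channel subunit, had 32.2, 26.9 and 23.2 FPKM in neurons and 0.164, 0.156 and 0.142 FPKM in microglia, a log2 fold change of 4.61 ± 0.088. Among sodium channel alpha subunits, Scn2a1 averaged 15.03 FPKM in neurons, Scn1a 7.43 FPKM, Scn3a 4.81 FPKM and Scn8a 4.31 FPKM, against 0.0961, 0.0151, 0.0759 and 0.0523 FPKM in microglia.

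On the other side of the comparison stood the genes of the immune cell. Of 26 tested pan-myeloid and leukocyte markers 0 were higher and 25 were lower in neurons, with a median log2 fold change of -7.10. Tyrobp, the signalling adaptor DAP12, had 4.91, 3.81 and 5.35 FPKM in neurons, against 5219, 4985 and 4892 FPKM in microglia, and differed by -9.80 ± 0.11 (SE, limma adjusted p = 1.02e-17). Trem2, the receptor that signals through it, had 0.7699, 0.697 and 0.576 FPKM in neurons and 865, 904 and 826 FPKM in microglia. The lysozyme gene Lyz2 had 23.02, 22.3 and 23.03 FPKM in neurons and 10112, 9068 and 9527 FPKM in microglia. In none of the 3 genes did a neuron library reach the lowest microglia library. Coro1a, an actin-binding coronin of leukocytes, was not called, with means of 66.7 FPKM in neurons and 89.7 FPKM in microglia.

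The homeostatic microglia list had 0 higher and 17 lower genes of 19 tested, with a median log2 fold change of -3.77. Fcrls, an Fc receptor-like gene used as a microglia marker, had 0.787, 0.666 and 0.902 FPKM in neurons and 218, 219 and 236 FPKM in microglia. Siglech and Gpr34 were not called, with means of 0 and 0.0438 FPKM in neurons and 0.0238 and 0.576 FPKM in microglia, and Tmem119 and Slc2a5 were not tested. Sparc, a matrix protein, was lower in neurons by -1.16 ± 0.093 with means of 16.8 FPKM in neurons and 38.7 FPKM in microglia.

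Myeloid transcription factors were lower in neurons for 21 of 24 tested genes and higher for 1, with a median log2 fold change of -3.90. Irf7, a regulator of interferon genes, had 1.01, 0.959 and 1.17 FPKM in neurons and 743, 743 and 732 FPKM in microglia, a log2 fold change of -8.50 ± 0.073. Spi1, encoding PU.1, had 0.524, 0.569 and 0.524 FPKM in neurons and 307, 334 and 306 FPKM in microglia. Its partner Irf8 had 0.168, 0.1801 and 0.254 FPKM in neurons and 136, 136 and 129 FPKM in microglia. The groups did not overlap for any of them. The higher gene was Mef2c, which acts in both lineages, with 99.4, 85.99 and 76.6 FPKM in neurons and 12.7, 13.3 and 13.2 FPKM in microglia and a log2 fold change of 2.64 ± 0.079. Mef2a and Klf4 were not called.

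Among complement, Fc receptor and pattern recognition genes 0 of 30 were higher and all 30 were lower in neurons, with a median log2 fold change of -6.73. Summed over the list, the level was 20.9 to 22.1 FPKM in neurons and 20718 to 21566 FPKM in microglia. C1qb had 2.59, 2.72 and 3.57 FPKM in neurons and 5735, 5599.7 and 5302 FPKM in microglia, a log2 fold change of -10.46 ± 0.12 (SE, limma adjusted p = 9.89e-18), and C1qa and C1qc differed by -10.10 ± 0.10 and -9.92 ± 0.096. Clec7a, the beta-glucan receptor Dectin-1, had 0.309, 0.184 and 0.311 FPKM in neurons and 777, 678 and 704 FPKM in microglia. Among Toll-like receptors the endosomal RNA sensors Tlr7 and Tlr13 averaged 0.216 and 0.193 FPKM in neurons and 213 and 148 FPKM in microglia, the highest levels of the family there. Tlr4, the lipopolysaccharide receptor, averaged 0.0538 FPKM in neurons and 34.5 FPKM in microglia. Every library of one group lay apart from every library of the other for the genes of this list named here. Such separation was not counted over all tested genes, so it does not single out this list.

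Interferon-stimulated genes were also lower in neurons without exception among the 22 tested, with a median log2 fold change of -6.64, and summed to 27.04 to 28.9 FPKM in neurons and 6072 to 6654 FPKM in microglia. Isg15 had 0.849, 0.948 and 1.41 FPKM in neurons and 464, 389 and 419 FPKM in microglia, a log2 fold change of -7.69 ± 0.11. Bst2, the tetherin that holds virus particles at the cell surface, had 3.91, 4.83 and 4.88 FPKM in neurons and 1536, 1428 and 1432 FPKM in microglia. Antigen presentation genes had 0 higher and 20 lower of 20 tested, with a median of -4.69. B2m, the light chain of class I molecules, had 30.03, 31.9 and 32.8 FPKM in neurons and 7472, 6259 and 6604 FPKM in microglia, whereas the class II genes H2-Aa, H2-Ab1 and H2-Eb1 averaged 1.26, 0.141 and 0.267 FPKM in neurons and 9.62, 3.91 and 3.52 FPKM in microglia.

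Chemokines and cytokines split, with 2 higher and 19 lower in neurons of 25 tested and a median log2 fold change of -3.93. Ccl5 had 2.57, 2.69 and 2.302 FPKM in neurons and 1439.8, 1321 and 1435 FPKM in microglia, and Ccl4 had 0.649, 0.783 and 0.766 FPKM in neurons and 564, 491 and 525 FPKM in microglia. The classical inflammatory cytokines were far lower than these chemokines in microglia, since Tnf, Il1b and Il6 averaged 0.0404, 0.394 and 0.106 FPKM in neurons and 16.2, 3.44 and 0.0682 FPKM in microglia, and Il6 was not called. The higher genes were Cx3cl1, the neuronal fractalkine, with 27.6, 29.9 and 27.4 FPKM in neurons and 2.52, 3.45 and 3.25 FPKM in microglia, and Cxcl12, a guidance chemokine, with 6.55, 5.85 and 5.81 FPKM in neurons and 0.406, 0.502 and 0.833 FPKM in microglia.

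Genes of the lysosome and of phagocytosis took 0.183% of the FPKM sum in neurons and 6.21% in microglia. All 28 tested members were lower in neurons, with a median log2 fold change of -5.88. Ctss, cathepsin S of myeloid cells, had 3.68, 2.97 and 3.08 FPKM in neurons and 4295, 3923 and 3929 FPKM in microglia, a log2 fold change of -9.90 ± 0.088. Ctsd, cathepsin D found in most cells, had 115, 126 and 126 FPKM in neurons and 11355, 11493 and 10952 FPKM in microglia, a log2 fold change of -6.51 ± 0.095. Prosaposin, Psap, was the most abundant member in neurons, with a mean of 261 FPKM, against 4689 FPKM in microglia.

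Lipid handling separated the cell types in opposite directions. Of 16 tested lipid handling genes linked to disease-associated microglia 0 were higher and 15 lower in neurons, with a median log2 fold change of -4.93. Apoe, the main carrier of cholesterol between brain cells, had 55.6, 59.1 and 62.7 FPKM in neurons and 23836, 24156 and 22854 FPKM in microglia and had the highest mean of any gene in microglia. Plin2, which coats lipid droplets, had 4.15, 4.69 and 4.42 FPKM in neurons and 656, 628 and 613 FPKM in microglia, and Abca1, which exports cholesterol, averaged 0.915 FPKM in neurons and 139 FPKM in microglia.

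Cholesterol synthesis genes showed the reverse, with 19 of 20 tested genes higher in neurons, 1 lower and a median log2 fold change of 3.02. Hmgcs1 had 479, 450.2 and 443 FPKM in neurons and 12.4, 13.4 and 14.1 FPKM in microglia, a log2 fold change of 4.9996 ± 0.06 (SE, limma adjusted p = 1.76e-17). Idi1, an isomerase of isoprenoid precursors, averaged 91.3 FPKM in neurons and 2.07 FPKM in microglia, and Sqle, the squalene epoxidase, had 90.8, 90.3 and 88.5 FPKM in neurons and 2.41, 2.98 and 3.09 FPKM in microglia. The lower gene was Ebp, a sterol isomerase, with 8.03, 10.7 and 11.2 FPKM in neurons and 30.2, 23.8 and 24.5 FPKM in microglia and a log2 fold change of -1.31 ± 0.11; after rescaling to 1 common sum it was at -0.73 and 0 genes of the list were called lower. All 3 neuron libraries lay below the 3 microglia libraries for Ebp and above them for the other genes named here.

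**Figure D3:**
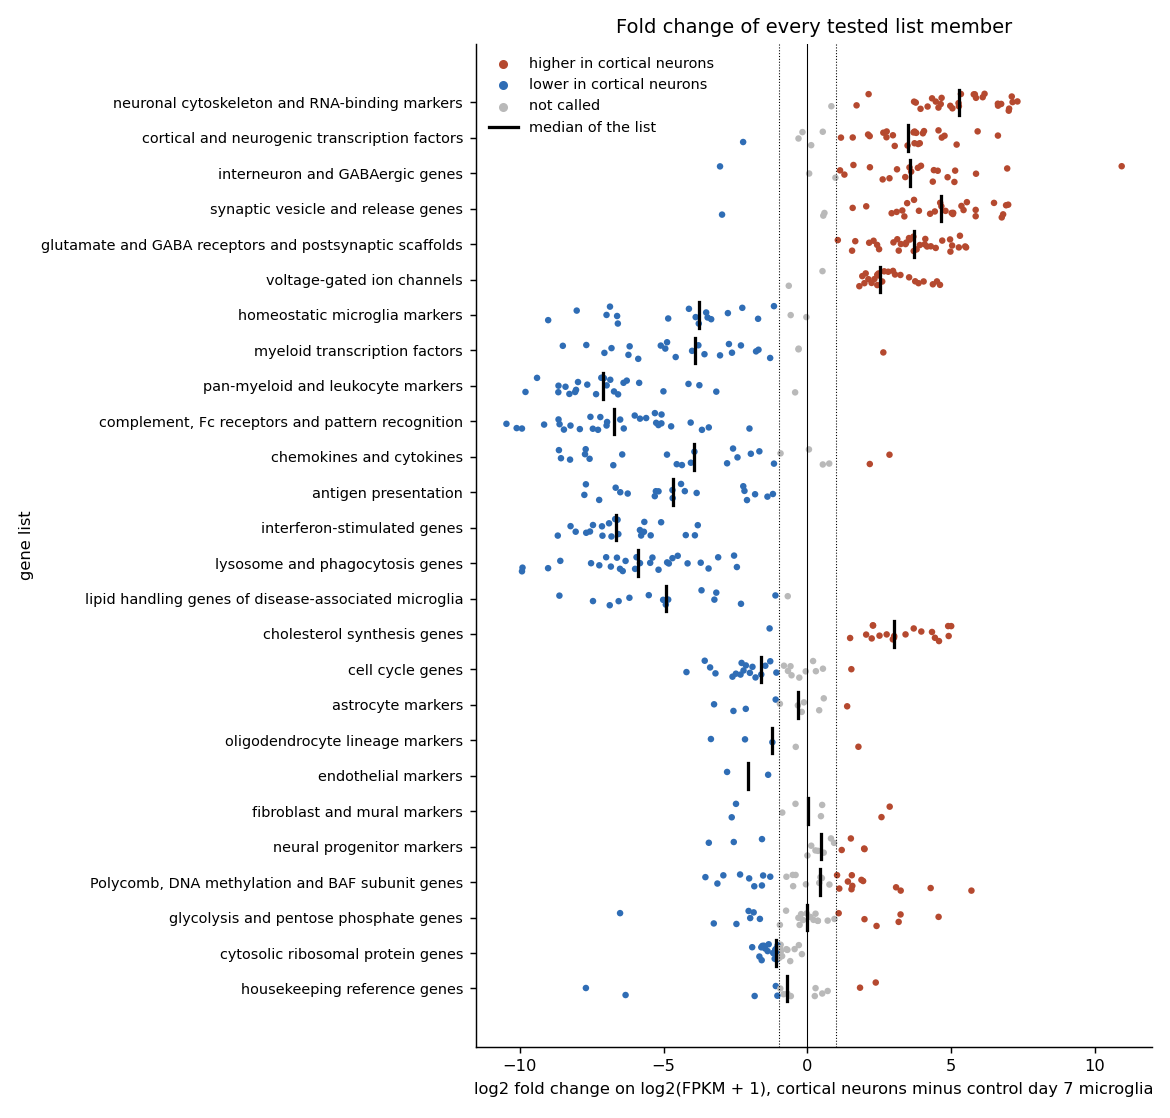
Each point is 1 tested member of a gene list (rows), placed by its log2 fold change on log2(FPKM + 1), cortical neurons minus control day 7 microglia, with 3 libraries per group. Red and blue points were called higher or lower in cortical neurons, grey points were not called, black bars are list medians and dotted lines mark -1 and 1. The 6 neuronal lists and cholesterol synthesis lie to the right, the myeloid, immune, lysosome and lipid handling lists to the left.

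Proliferation genes were lower in the neurons. Of 27 tested cell cycle genes 17 were lower and 1 was higher, with a median log2 fold change of -1.60. Ccnd1, cyclin D1, had 4.003, 3.99 and 3.86 FPKM in neurons and 90.1, 90.9 and 89.3 FPKM in microglia, and Cdk1, the mitotic kinase, had 0.297, 0.439 and 0.293 FPKM in neurons and 11.8, 10.3 and 11.8 FPKM in microglia. Both were low in every neuron library. Mki67, a proliferation marker, averaged 0.0973 FPKM in neurons and 1.69 FPKM in microglia. The higher gene was Cdkn1c, the inhibitor p57, with 8.94, 9.79 and 9.85 FPKM in neurons and 2.102, 3.002 and 2.903 FPKM in microglia. Of 14 tested neural progenitor markers 4 were higher and 3 lower, shares near the 28.1% and 25.3% of all tested genes, and 7 were higher and 3 lower after rescaling to 1 common sum. Fabp7, a fatty acid binding protein of radial glia, had 106, 106 and 131 FPKM in neurons and 32.6, 23.2 and 29.5 FPKM in microglia, while Vim, a filament of both progenitors and macrophages, had 46.9, 48.5 and 52.02 FPKM in neurons and 537, 557 and 518 FPKM in microglia.

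Chromatin genes differed in both directions. Of 30 tested Polycomb, DNA methylation and BAF subunit genes 12 were higher and 9 lower in neurons, with a median log2 fold change of 0.43, and after rescaling to 1 common sum 16 were higher and 7 lower. Over all tested genes 28.1% were higher and 25.3% lower. The BAF remodelling complex exchanges subunits when neurons leave the cell cycle, and the subunits differed in pairs. Actl6b had 67.6, 75.1 and 78.3 FPKM in neurons and 0.416, 0.4298 and 0.448 FPKM in microglia, while its relative Actl6a had 4.98, 5.08 and 4.95 FPKM in neurons and 22.02, 19.8 and 19.9 FPKM in microglia. The same opposite directions held for Dpf1 and Dpf2, Ss18l1 and Ss18, and Smarcd3 and Smarcd2, although Dpf2 was at -0.99 and no longer called after rescaling to 1 common sum. Rest, the repressor of neuronal genes outside the nervous system, averaged 0.556 FPKM in neurons and 6.96 FPKM in microglia, a log2 fold change of -2.34 ± 0.11. Ezh2 and Ezh1, alternative methyltransferases of Polycomb, averaged 5.705 and 6.04 FPKM in neurons and 3.74 and 27.6 FPKM in microglia, of which Ezh1 was called lower and Ezh2 was not called. Mbd2, a reader of methylated DNA, was lower in neurons with 7.76, 7.52 and 7.97 FPKM against 81.7, 72.004 and 72.97 FPKM in microglia.

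Pairs of related genes were picked with earlier results of these data known. Their counts are descriptions and do not stand for related genes at large. Over all tested genes 28.1% were higher and 25.3% lower in neurons. Of 25 pairs of related genes chosen for a neuronal and a general or myeloid member, 15 had the first gene higher and the other lower in neurons, 5 had the first higher and the other not called, and 2 had both higher. In Aldoc and Aldoa the first gene was not called, in Bcl2l1 and Bcl2a1b it was lower, and Il34 of the pair with Csf1 was not tested. The SNARE gene Snap25 had 243, 234 and 227 FPKM in neurons and 1.14, 0.989 and 1.43 FPKM in microglia, while Snap23 had 1.83, 1.61 and 1.44 FPKM in neurons and 75.7, 70.7 and 72.5 FPKM in microglia. Vamp2 had 401, 431 and 411 FPKM in neurons and 15.3, 15.6 and 15.6 FPKM in microglia, and Vamp8, a SNARE of late endosomes, had 1.06, 0.777 and 1.201 FPKM in neurons and 471, 446 and 449 FPKM in microglia. Within both pairs the 2 cell types had swapped which gene was high, in every library. As a share of the summed FPKM of its pair, Snap25 made up 99.3% in neurons and 1.598% in microglia, and Vamp2 99.8% in neurons and 3.28% in microglia.

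Some of the picked pairs of splicing, transport and signalling genes showed the same arrangement. Ptbp2, the neuronal polypyrimidine tract binding protein, had 47.2, 41.6 and 41.8 FPKM in neurons and 2.86, 2.73 and 3.29 FPKM in microglia, and Ptbp1, which represses neuronal exons, had 7.01, 7.12 and 6.89 FPKM in neurons and 71.6, 76.2 and 71.1 FPKM in microglia. The sodium pump beta subunits Atp1b1 and Atp1b3 differed by 5.52 ± 0.048 and -2.93 ± 0.044. Rac3 had 183, 210.0 and 223 FPKM in neurons and 8.85, 8.81 and 9.19 FPKM in microglia, whereas the blood cell GTPase Rac2 had 0.949, 1.17 and 0.797 FPKM in neurons and 269, 273 and 268 FPKM in microglia. FPKM is per length, so levels of both members can be set side by side within a library, although reads of near-identical relatives such as Tuba1a and Tuba1c could be divided between them in the authors' counting.

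**Figure D4:**
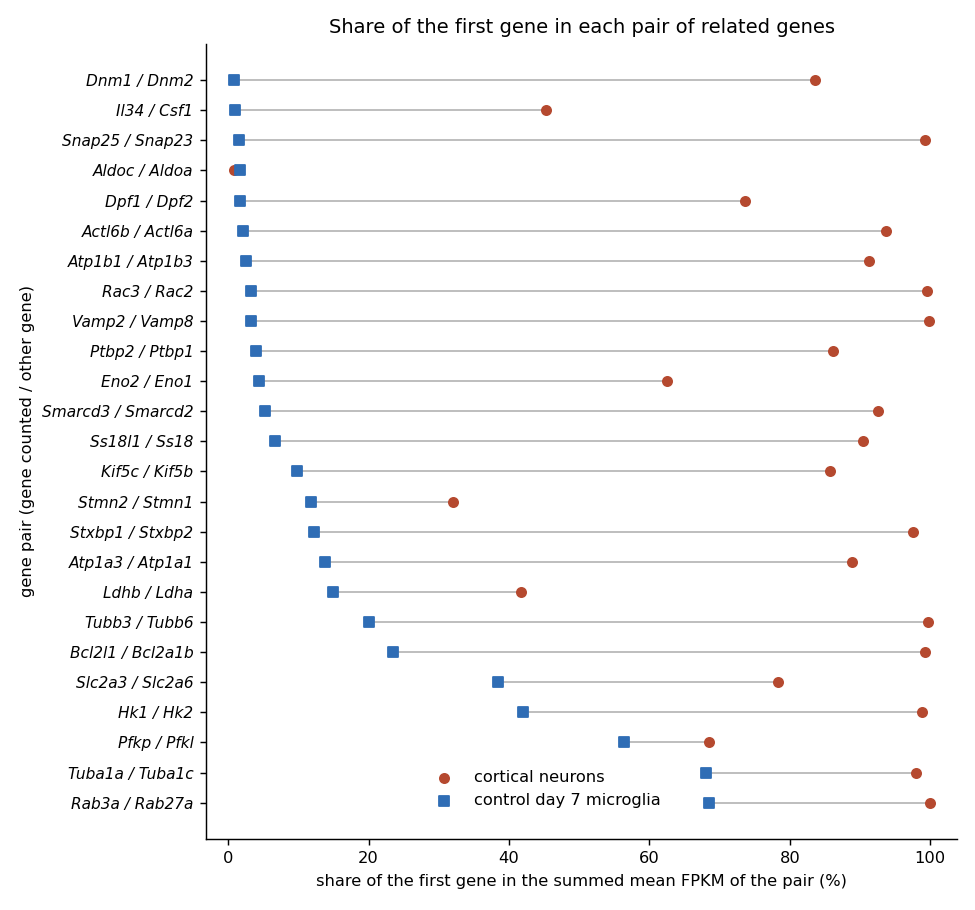
Each row is a pair of related genes, and the horizontal axis gives the first gene's share of the summed mean FPKM of the pair, in percent, with red circles for cortical neurons and blue squares for control day 7 microglia. The share is higher in cortical neurons for 24 of the 25 pairs shown, the exception being Aldoc and Aldoa.

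Signals that pass from neurons to microglia had their ligand and receptor on opposite sides for 2 of 3 pairs. Cx3cl1 was higher in neurons by 2.85 ± 0.081, and its receptor Cx3cr1 lower by a log2 fold change of -3.47 ± 0.058. Cd200, a membrane ligand that restrains myeloid cells, had 113, 109.7 and 111 FPKM in neurons and 1.33, 1.38 and 1.97 FPKM in microglia, and its receptor Cd200r1 had 0.0146, 0.0423 and 0.0478 FPKM in neurons and 56.1, 54.1 and 56.3 FPKM in microglia. Cd47, the signal against engulfment, did not follow, with 53.2, 48.8 and 48.9 FPKM in neurons and 153, 139 and 144 FPKM in microglia, a log2 fold change of -1.51 ± 0.048 that was -0.88 and not called after rescaling to 1 common sum, beside -5.68 ± 0.07 for its receptor Sirpa. Il34 and Csf1, both ligands of the CSF1 receptor, averaged 0.7405 and 0.894 FPKM in neurons and 0.101 and 10.4 FPKM in microglia.

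Genes of energy metabolism were called about as often as genes overall. Of 27 tested glycolysis and pentose phosphate genes 6 were higher and 7 lower in neurons, beside 28.1% higher and 25.3% lower over all tested genes, with a median log2 fold change of -0.03; after rescaling to 1 common sum 9 were higher and 7 lower, with a median of 0.62. Hexokinases parted, with Hk1 at 61.9, 66.5 and 63.1 FPKM in neurons and 10.5, 12.2 and 11.1 FPKM in microglia, Hk2 at 0.781, 0.852 and 0.572 FPKM in neurons and 13.97, 16.3 and 16.3 FPKM in microglia, and Hk3 at 0.193, 0.23 and 0.1198 FPKM in neurons and 103, 113 and 103 FPKM in microglia. The glucose transporter Slc2a3 was higher in neurons by 3.24 ± 0.087, and Slc2a1 averaged 3.77 FPKM in neurons and 16.4 FPKM in microglia, a log2 fold change of -1.87 ± 0.069. Enolase Eno2 had 90.8, 98.1 and 101 FPKM in neurons and 3.03, 2.84 and 3.56 FPKM in microglia, while the interval of the log2 difference for Eno1 was -0.52 to 0.09. Lactate dehydrogenase Ldhb was higher in neurons by 1.99 ± 0.08, and for Ldha the interval was -0.16 to 0.11. The oxidative pentose phosphate enzymes G6pdx and Pgd were both lower, with means of 19.4 and 29.1 FPKM in neurons and 82.8 and 165 FPKM in microglia.

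Genes alike in both groups were those whose 95% interval of the log2 fold change lay within -1 to 1, 5484 of 13602 (40.3%). This count includes weakly expressed genes, whose change the scale understates. It can also include genes that passed the filter through libraries of the groups not compared. Hes5 averaged 0.682 FPKM in neurons and 0.134 FPKM in microglia, with an interval of 0.36 to 0.78. Of all tested genes 4144 had a mean of at least 10 FPKM in both groups. The closest with at least 100 FPKM in both groups included St13, a chaperone cofactor, with 113, 117 and 119.8 FPKM in neurons and 121, 113 and 115 FPKM in microglia and an interval of -0.07 to 0.07. Pcbp1, an RNA-binding protein, had 113, 122 and 118 FPKM in neurons and 118, 122 and 114 FPKM in microglia, and Psmc1, a proteasome ATPase, had 139, 146 and 162 FPKM in neurons and 155, 144 and 145 FPKM in microglia. The libraries of the groups overlapped for all 3. The other 5 were Rabac1, Ociad1, Gm6793, Tbca and Rpl10a.

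Genes often taken as references did not all stay level. Of 15 tested 2 were higher and 5 lower in neurons, beside 28.1% higher and 25.3% lower over all tested genes, so they were not called more often than genes overall. The counts became 4 and 3 after rescaling to 1 common sum and also after quantile normalization. B2m differed most, followed by Gusb, a lysosomal glucuronidase with 2.49, 2.76 and 2.88 FPKM in neurons and 297, 294 and 293 FPKM in microglia. Tbp, the TATA-binding protein, averaged 10.04 FPKM in neurons and 8.25 FPKM in microglia with an interval of 0.10 to 0.41. Ywhaz, a 14-3-3 protein, was higher in neurons with 487, 482 and 487 FPKM against 97.4, 90.9 and 90.01 FPKM in microglia. Of 30 cytosolic ribosomal protein genes 0 were higher and 18 lower with a median log2 fold change of -1.09, but 2 were lower and the median was -0.44 after rescaling to 1 common sum; after quantile normalization 0 were higher and 1 lower, with a median of -0.29. Ribosomal RNA itself varied widely: Rn45s, the ribosomal RNA precursor, had 1504, 2294 and 3437 FPKM in neurons and 329.9, 171 and 127 FPKM in microglia, and Mir6236, a small locus, had 7197, 11212 and 15933 FPKM in neurons and 955, 398 and 207 FPKM in microglia. For both loci every neuron library lay above every microglia library, and their part in the results was not tested.

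The most abundant genes were ranked by mean FPKM. In neurons the top 10 by mean were Mir6236, Snord91a, Eef1a1, Tmsb4x, Tmsb10, Rn45s, Rpl41, Stmn1, Ppia and Rpl38. In microglia they were Apoe, Fth1, Ftl1, Ctsd, Tmsb4x, Lyz2, B2m, Eef1a1, C1qb and Rps29. Stmn1, a microtubule regulator of growing neurites, had 2066, 2268 and 2489 FPKM in neurons and 66.4, 64.2 and 72.04 FPKM in microglia. The thymosins, which bind actin monomers, differed in opposite directions, Tmsb10 by 3.30 ± 0.097 and Tmsb4x by -1.88 ± 0.13, a value of 0.17 after quantile normalization. The ferritin chains Fth1 and Ftl1, which store iron, averaged 1133 and 1554 FPKM in neurons and 22976 and 21387 FPKM in microglia. Snord91a was listed at 0 in all microglia libraries and had 3503, 7506 and 7630.2 FPKM in neurons. Other small loci were erratic between neuron libraries, such as Snord42b with 2544, 0 and 0 FPKM and Snord37 with 0, 2617 and 0 FPKM. Read counts were not used, so the rank of small loci such as Snord91a and Mir6236 cannot be checked.

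CpG methylation gave a readout that the RNA comparison did not use. It comes from 1 control microglia bisulfite library whose day is not given, has no read counts and so no known depth, and cannot be compared with neurons, for which no such library was used here. Over all CpG positions the mean was 70.2% and the median 82.4%, whereas promoters were mostly low. The value of a gene pools the windows of all its listed starts. With at least 3 CpG positions in the window, the median was 1.92% for genes higher in neurons (n = 2703), 1.26% for genes lower in neurons (n = 2470) and 0.933% for tested genes not called (n = 4738). Promoters under 10% made up 79.6% of genes higher, 82.3% of genes lower and 90.6% of genes not called. Those over 50% made up 3.96% of genes higher, 3.77% of genes lower and 1.98% of genes not called. With a window of 1000 bases before to 500 after the start the medians were 7.52% for genes higher, 7.64% for genes lower and 4.67% for genes not called, and 5.32%, 8.61% and 3.92% of promoters were over 50%, so the order of genes higher and genes lower depended on the window. The groups were formed by the RNA comparison, so these shares are descriptions without a test.

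Promoters of neuronal genes were under 10% in microglia for 15 of 18 members of the neuronal skeleton list, 14 of 21 cortical factors, 12 of 15 interneuron genes, 18 of 24 release genes, 12 of 16 postsynaptic genes and 10 of 15 channels. Among the myeloid and immune lists the same held for 16 of 17 myeloid transcription factors, 7 of 13 homeostatic markers, 7 of 14 pan-myeloid markers, 10 of 18 complement and receptor genes, 7 of 13 chemokines and cytokines, 11 of 13 antigen presentation genes, 7 of 14 interferon-stimulated genes and 17 of 22 lysosome genes. Over all tested protein-coding genes with enough positions the share under 10% was 85.5% (n = 9911), so low methylation was not particular to any of these lists. Members without a listed promoter or with too few positions are left out, and in the neuronal skeleton list 20 of 30 members had a listed promoter. The Tubb3 promoter printed above averaged 1.91% over 26 CpG positions and that of Map2 1.21%, and Gad1 had 1.98%. A minority were methylated: Neurod6 averaged 56.2% over the 3 positions printed above, Rbfox3 64.2% over 4, Dlg2 65.5% over 6 and Syt1 28.6% over 14. Sst averaged 13.7% over 12. Of the microglial genes, Irf8 had 2.88%, P2ry12 0.833%, Apoe 2.297% and C1qb 11.1%. Some genes with high levels in microglia had methylated positions at their annotated starts in the same cell type. Spp1, osteopontin, had 52.1% over 5 positions, Oasl2, an interferon-stimulated gene, 76.4% over 3, and Smarcd2 92.1% over 4. Whether these cells use the annotated starts was not tested. The astrocyte and mural markers Gfap and Acta2, which were higher in microglia than in neurons, averaged 61.6% over 3 positions and 90.8% over 6.

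**Figure D5:**
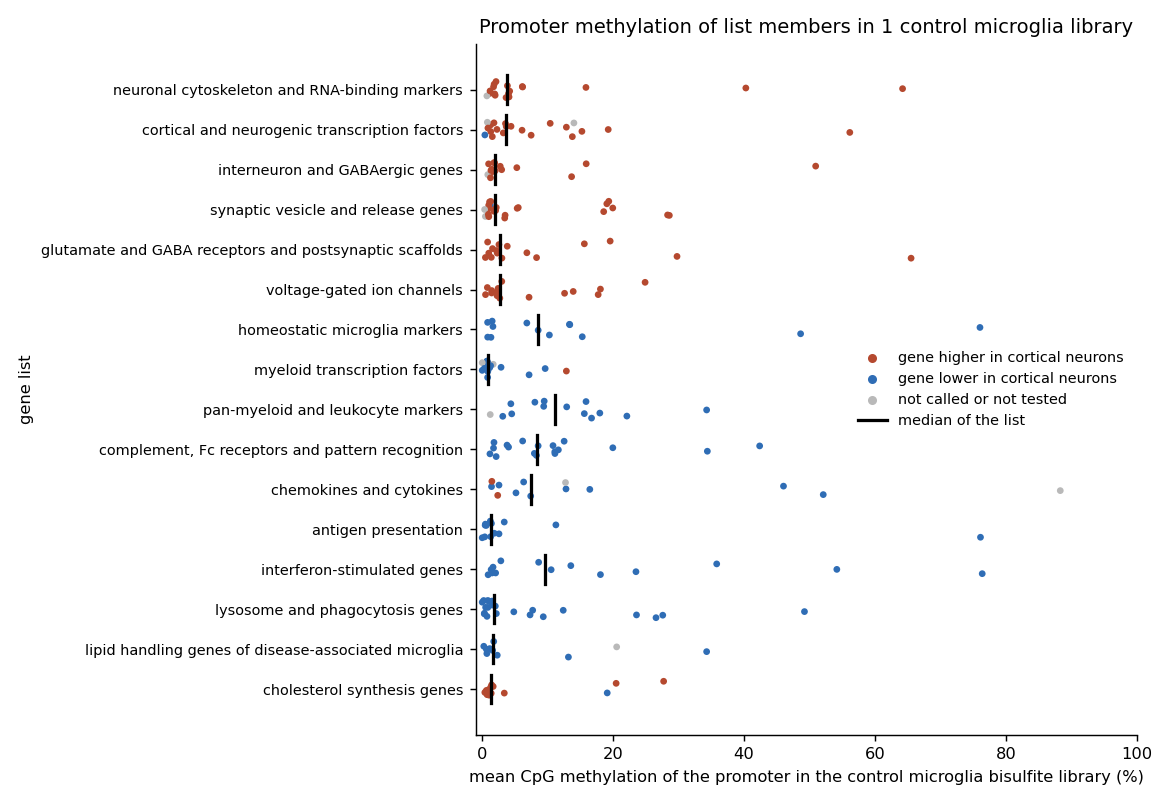
Each point is 1 list member, placed by the mean CpG methylation of its promoter in percent in the 1 control microglia bisulfite library. All listed starts of a gene are pooled, and genes with at least 3 CpG positions are shown. Red points are genes higher and blue points genes lower in cortical neurons, grey points were not called or not tested, and black bars are list medians, which lie at 0.919% for myeloid transcription factors and at 11.2% for pan-myeloid markers.

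Promoter words and gene size are given for the same groups of genes, also as descriptions without a test. The word GAGGAAGT, searched on both strands, stood in 2.41% of promoters of genes higher in neurons, 6.15% of those lower and 3.74% of all tested genes, and in 5 of 26 promoters of the complement list, among them C1qc. It stood in 3 of 23 lysosome, 2 of 18 pan-myeloid, 1 of 14 homeostatic and 1 of 17 myeloid transcription factor promoters. The interferon word, GAAA with any 2 bases before another GAAA, stood in 2.87% of promoters of genes higher, 6.87% of those lower and 3.95% of all, and in 10 of 15 promoters of interferon-stimulated genes, among them Isg15. TGACGTCA stood in 4.45% of promoters of genes higher in neurons, 2.45% of those lower and 3.64% of all. CAGATG, the E-box word bound by neurogenic basic helix-loop-helix factors, stood in 14.7% of promoters of genes higher, 15.6% of those lower and 13.7% of all. TCACNCCAC stood in 1.22% of promoters of genes higher, 1.70% of those lower and 1.35% of all, and in 1 of 15 promoters of cholesterol synthesis genes, that of Hmgcs1. Genes higher in neurons had a median span of 31.6 kb in the annotation, against 22.5 kb for genes lower and 22.4 kb for genes not called. A span over 100 kb was found for 25.4% of genes higher, 10.8% of genes lower and 11.2% of genes not called. The shares are of genes: a gene counted once for a word if the window of any of its listed starts held it. Other words that it held or overlapped made no difference. Genes with several listed starts had more sequence searched.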

How the data were processed

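Gene-level FPKM were deposited by the authors for 15 RNA libraries. Per the submitters' processing notes, the tools were Bowtie2, TopHat, Cufflinks and Cuffdiff and the build was mm10, with no versions. Per the labels' protocols, mRNA was isolated on oligo-dT beads. The deposited bisulfite table holds a methylated fraction per CpG position without read counts, from post-bisulfite adaptor tagging per the labels. The aligner and caller behind it: not given in the sources used here. Depth is therefore unknown for both kinds of file, no counting interval is given, and no count test was run.

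Of 24293 symbols, 24149 matched the RefSeq table of GRCm38.p6, 1108 of them by a synonym, 27 were date-like and 4 rows with a duplicated symbol were left out. The fit used limma 3.58.1 (R 4.3.3) on log2(FPKM + 1) in all 15 libraries, with 1 mean for each of 5 groups and an intensity trend but without replicate block, which leaves 10 residual degrees of freedom. The fit was tested on simulated data. With 3 libraries against 3 an exact permutation test cannot go below 0.1, so no single-gene permutation p is given. Genes named are the 12 largest and 12 smallest log2 fold changes among called protein-coding genes with at least 20 FPKM in the higher group and no overlap, the 4 largest called members of each list and 2 called members against it, all pairs, the 10 most abundant genes of each group, the 8 closest genes with at least 100 FPKM in both, and markers of other cell types at 20 FPKM or above. Further list members are named to describe a list's range, its members not called and its known subgroups, after their values were seen. Some genes that the rule selects are not reported here. The 26 gene lists and 28 pairs were chosen with earlier results of these data known, so counts in them are descriptions, and no test over a list was made. The labels do not say whether equal replicate numbers share a preparation. In their deviations from the group mean, equal numbers correlated at 0.020, -0.005 and -0.021, and unequal numbers at -0.117 to 0.138. Such values between 2 unlike cell types cannot decide it. Promoter methylation is the mean fraction over CpG positions from 250 bases before to 50 after the RefSeq start, with at least 3 positions. For a gene with several listed starts, the positions of all of them were pooled, whether or not a start is used in these cells. The alternatives tried were other pseudocounts, filters and scalings, a fit of the 6 libraries alone, no trend, a replicate block, day 2 control microglia, leaving out each library, and another CpG minimum and window.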

Additional observations from a re-analysis of the deposited data

How the results depend on the processing

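Of 184 genes chosen by the naming rule and tested, 150 kept their direction and side of the threshold under every one of 16 settings that gave a value. The counts of 3824 higher and 3436 lower genes stayed within 1.5 times of these values except for 2430 higher genes with a pseudocount of 5, and 11890 genes were alike with no filter on low values, in place of 5484, since more weakly expressed genes were tested. Leaving out 1 library at a time gave 3793 to 3836 higher and 3415 to 3452 lower genes. A replicate block gave 3823 higher and 3435 lower genes and changed no call of a named gene, and whether equal replicate numbers share a preparation is not known. Promoters under 10% fell to 59.9% of genes higher, 58.2% of genes lower and 74.7% of genes not called with the window of 1000 bases before to 500 after the start. The log2 fold change reversed with control microglia of day 2 in place of day 7, which share the neuron libraries, for Acta2 (1.19), Aldoc (0.94), Aqp4 (0.024), Clu (3.39), Eno1 (0.10), Slc2a6 (-1.70) and Tagln (0.82). That setting gave no value for Actr3, Fth1, Rgs5 and Vtn, which are listed at 0 in all day 2 libraries. With quantile normalization the log2 fold change reversed for Aldoa (0.37), Clu (0.0032), Eef1a1 (0.92), Ldha (0.34), Rpl38 (0.52), Rpl41 (0.86) and Tmsb4x (0.17). Rescaling to 1 common sum ended the calls of 6 genes, Cd47 (-0.88), Dpf2 (-0.99), Ebp (-0.73), Mbp (-0.66), Rps19 (-0.96) and Rps9 (-0.94), and reversed Aldoa (0.49), Clu (0.44), Eno1 (0.42), Kif5b (0.23), Ldha (0.62) and Rpl41 (0.17). Leaving out 1 library at a time put Ldha between -0.094 and 0.053, positive without cortical neuron replicate 1 or without control day 7 replicate 1 (0.0012). Of the reversed genes Acta2, Aqp4, Tagln and Tmsb4x were called on the scale as deposited, and for all genes named here the cause was not tested. FPKM without counts limit all values to the spread between 3 libraries per group, pooled in the main fit over 5 groups.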

Other observations

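Genes outside the lists, chosen after their values were seen as the 10 largest called protein-coding differences in each direction with at least 20 FPKM in the higher group and no library at 0, added further neuronal and myeloid genes. Sncb, encoding beta-synuclein, had 146, 167 and 169.5 FPKM in neurons and 1.002, 0.744 and 0.728 FPKM in microglia, a log2 fold change of 6.47 ± 0.078 (SE, n = 3 each). Scg5, a chaperone of the regulated secretory pathway, had 349, 368 and 419.8 FPKM in neurons and 3.07, 1.82 and 3.15 FPKM in microglia, and Cnih2, an auxiliary AMPA receptor protein, had 178, 209 and 209 FPKM in neurons and 0.854, 0.9298 and 1.24 FPKM in microglia. In the other direction, the NADPH oxidase subunits Cyba and Cybb averaged 2.601 and 0.348 FPKM in neurons and 1282 and 423 FPKM in microglia. Mpeg1, the perforin-like protein of macrophages, had 1.97, 1.81 and 2.05 FPKM in neurons and 1452, 1482 and 1505 FPKM in microglia, a log2 fold change of -8.97 ± 0.071. Trf, transferrin, had 0.788, 0.537 and 0.4798 FPKM in neurons and 624, 586 and 588 FPKM in microglia, beside the opposite direction of its receptor Tfrc, with 57.1, 49.8 and 47.1 FPKM in neurons and 13.5, 13.3 and 14.2 FPKM in microglia.

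Long non-coding RNA genes numbered 412 among those tested, of which 132 were higher and 89 lower in neurons, beside 28.1% higher and 25.3% lower over all tested genes. The imprinted neighbours Rian and Meg3 had 165, 157 and 149 FPKM and 86.4, 81.7 and 67.2 FPKM in neurons, against 0.801, 0.865 and 1.13 FPKM and 0.743, 0.818 and 1.01 FPKM in microglia. Neat1, the scaffold of nuclear paraspeckles, had 0.4799, 0.391 and 0.442 FPKM in neurons and 111, 101 and 102 FPKM in microglia, a log2 fold change of -6.20 ± 0.07. None of these genes overlapped between the groups.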
